A study of Mus musculus with 32 samples.

Results

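The genes described here are 34 mouse genes of glucose uptake, glycolysis and the response to low oxygen, followed across B cell lymphoma lines, normal B cells in several states and lymphoma cells treated with a drug. They were chosen by name: a gene belonged if a probe of the array carried its symbol (Pkm is written Pkm2 there), and its brightest probe stood for it. All 34 were found, among 34797 gene names on the array. By role they are 2 glucose transporters, 9 enzymes of upper glycolysis, 6 of lower glycolysis, 3 genes of lactate transport and pyruvate use, 3 of mitochondrial turnover, 2 oxygen sensors, 3 enzymes of protein folding and collagen, and 6 signalling and stress genes.

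RNA was compared on 32 Agilent 2-colour arrays. On 24 arrays the sample was labelled with Cy5 and a common RNA pool, mixed from the same kinds of cells, with Cy3. These arrays held 9 B cell lymphoma lines, each a cell line from the spleen of an ATMKO.CD3epsilonKO mouse, which has neither ATM, a kinase of the DNA damage response, nor CD3 epsilon, a chain that T cells need. They also held germinal centre (GC) B cells of ATMWT mice immunised with SRBC, a standard antigen that raises germinal centres. The splenic B cells came from ATMKO.CD3epsilonKO mice (untreated, or 3 h, 6 h or 24 h with goat-anti-mouse IgM at 15 ug/ml, which crosslinks the B cell receptor) and from ATMWT.CD3epsilonKO mice (untreated or 6 h). All groups but the GC donors therefore lacked CD3 epsilon. The labels give the GC donors as ATMWT and name no CD3 epsilon allele, so the GC comparisons differ in ATM and may differ in that allele too. On the other 8 arrays, lymphoma lines 178119 and 28545, both ATMKO.CD3epsilonKO, were treated with 100 nM PCI-32765 (ibrutinib, which blocks BTK, a kinase below the B cell receptor) in Cy5 and with the vehicle DMSO in Cy3 for 1, 3, 6 or 24 h. Repeat arrays of 1 RNA were averaged, which left 9 lines, 1 GC sample, 2 untreated samples, 1 sample at 3 h, 2 at 6 h and 1 at 24 h. Ages of mice, pooling of animals and oxygen in culture are not given in the sources used here, and nothing says that replicates came from separate cultures, so p-values measure the spread between these samples only.

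Glycolysis splits glucose into pyruvate, and cells that divide fast run it even where oxygen is present and release the product as lactate. When oxygen is low, prolyl hydroxylases of the Egln family stop marking the transcription factor HIF-1 for destruction. HIF-1 then switches on glucose transporters, most glycolytic enzymes, Pdk1, Bnip3, Vegfa and other genes, through short DNA elements whose core is ACGTG or GCGTG. Resting B cells are small and use little glucose, and signals through the B cell receptor raise glucose uptake as they enter growth. MYC and the PI3K and mTOR pathway can raise many of the same genes without a lack of oxygen, so their level alone does not report oxygen.

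The share of sample spots above background was 45.6% to 60.7% on 29 of the arrays. It was 21.9% on the first of 2 arrays of line 1039, 29.4% on the first GC array and 85.5% on the array of line 28545 at 24 h. The first GC array was left out, since its ratios correlated with the others at 0.089 across genes, against 0.98 between those others, and the GC sample is the mean of the others. Atm, the deleted gene, lay at log2 -1.54 to -0.34 against the pool in the 13 ATMKO samples, below 0.42 to 1.04 in the 3 ATMWT samples. The 8 B cell markers averaged 0.726 to 1.31 times the pool in the lymphoma lines, 1.5 in GC B cells, 0.706, 0.568 to 0.573 and 1.1 in 3 h, 6 h and 24 h anti-IgM cells, and 1.32 to 1.39 in untreated cells. The 7 GC markers averaged 2.91 times the pool in the GC sample and 0.242 to 0.292 in untreated cells.

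RefSeq windows of 250 bases before the annotated start (mouse GRCm38.p6) matched 31 of the 34 members, and Slc2a3, Bnip3l and Ndrg1 are named here without one. The letters ACGTG, read on either strand, were found in the windows of 16 of the 31 members (51.6%), against 16.6% of 27025 promoters of the same length. GCGTG on either strand was found in 18 (58.1%), against 28.2% of promoters. At least 1 of both cores stood in 24 members (77.4%), against 38.6%. The E-box CACGTG, which contains ACGTG on both strands and is also read by MYC, was found in 4 members (12.9%), Pfkm, Ldha, Slc16a1 and Bnip3, against 6.05%. The members' windows had a median GC content of 64%, against 52% over all promoters, and both cores hold a CpG. A match is a description of letters and not a measured binding site. The windows below belong to the members on which the results turn, and Egln3 is the gene that varied most among the lymphoma lines. They run 5′ to 3′ toward the gene, with every ACGTG or GCGTG on either strand in capitals, and touching or overlapping matches as 1 run.
Bnip3 (chr7:138909507-138909756, minus strand): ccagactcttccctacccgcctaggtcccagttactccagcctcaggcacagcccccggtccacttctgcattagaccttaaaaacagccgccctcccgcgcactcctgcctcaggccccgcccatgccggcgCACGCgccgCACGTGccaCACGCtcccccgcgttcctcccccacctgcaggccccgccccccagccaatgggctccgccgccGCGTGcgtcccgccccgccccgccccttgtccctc
Ankrd37 (chr8:45999851-46000100, minus strand): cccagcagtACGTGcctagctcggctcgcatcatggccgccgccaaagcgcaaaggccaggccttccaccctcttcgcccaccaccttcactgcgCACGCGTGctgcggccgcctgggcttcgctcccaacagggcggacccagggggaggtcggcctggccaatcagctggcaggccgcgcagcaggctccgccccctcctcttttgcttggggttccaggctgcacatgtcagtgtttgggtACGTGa
Pgk1 (chrX:106186850-106187099, plus strand): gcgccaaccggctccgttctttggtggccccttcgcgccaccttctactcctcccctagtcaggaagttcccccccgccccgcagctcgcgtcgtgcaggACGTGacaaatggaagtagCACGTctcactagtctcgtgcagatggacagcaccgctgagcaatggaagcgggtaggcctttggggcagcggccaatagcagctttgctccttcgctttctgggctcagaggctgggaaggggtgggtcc
Slc16a3 (chr11:120948817-120949066, plus strand): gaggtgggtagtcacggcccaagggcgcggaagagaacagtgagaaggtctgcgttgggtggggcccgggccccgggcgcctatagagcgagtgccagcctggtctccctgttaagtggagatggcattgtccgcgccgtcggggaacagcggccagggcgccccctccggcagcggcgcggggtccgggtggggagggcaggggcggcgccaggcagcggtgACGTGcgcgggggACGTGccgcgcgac
Egln3 (chr12:54203875-54204124, minus strand): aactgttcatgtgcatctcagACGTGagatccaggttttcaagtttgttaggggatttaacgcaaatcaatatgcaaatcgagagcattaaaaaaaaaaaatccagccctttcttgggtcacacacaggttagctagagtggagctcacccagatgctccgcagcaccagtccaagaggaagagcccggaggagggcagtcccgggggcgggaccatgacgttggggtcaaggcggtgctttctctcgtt
The Bnip3 window held 5 matches and that of Ankrd37 4, those of Pgk1 and Slc16a3 2 each, and that of Egln3 1. On the array, whose own annotation is mm9, the probes used for these genes lie at chr7:146082760-146082819 (Bnip3), chr8:47082404-47082463 (Ankrd37), chr11:120820023-120820082 (Slc16a3) and chr12:55280953-55281012 (Egln3). The array's annotation puts the Pgk1 probe, made from the Pgk1 transcript, at chr3:57906830-57906894, away from the gene on chromosome X, so a copy elsewhere in the genome may share its signal.

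**Figure D1:**
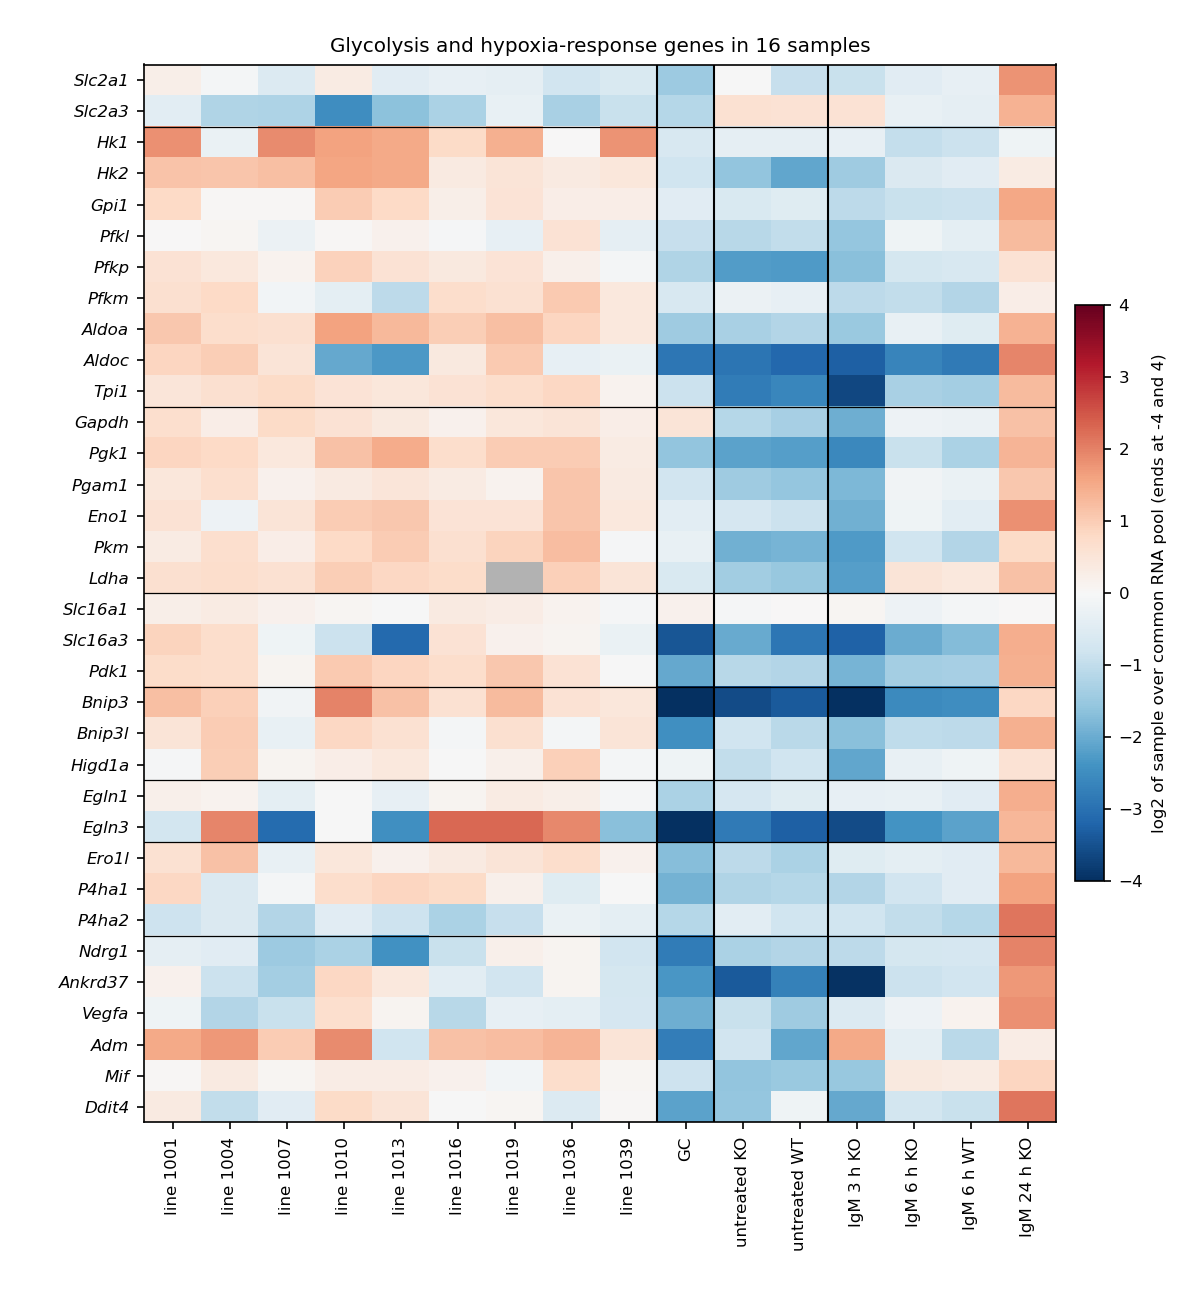
Level of each of the 34 genes (rows, grouped by role) in each of the 16 samples (columns), as log2 of sample over RNA pool, from blue (below the pool) to red (above). Grey is 1 missing value, Ldha in line 1019. Lymphoma lines and the 24 h anti-IgM sample are mostly red, while GC, untreated and 3 h samples are mostly blue.

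Set beside untreated B cells of the spleen, the lymphoma lines had higher levels of nearly the whole glycolytic pathway and of most hypoxia-response genes, and a lower level of the glucose transporter Slc2a3. Of 34 members, 25 were higher and 1 was lower at an adjusted p under 0.05 (limma, moderated test over 21357 genes with Benjamini-Hochberg adjustment). Over all genes, 18.4% were called higher and 24.9% lower. The members' median log2 difference was 1.64, against -0.013 over all genes tested. For 23 members all measured lines lay above both untreated samples, and for 1 below. The share of all genes so placed is not given here, so these 2 counts only describe the members. With slide as a random block 26 members were called, and within each of the 3 slides that hold both groups all 26 called members kept their sign.

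Neither glucose transporter passed the test as higher. Slc2a1 (GLUT1, the common transporter of dividing cells) lay at -0.78 to 0.33 over the lymphoma lines, with a median of -0.35, and at -0.015 in untreated ATMKO and -0.92 in untreated ATMWT cells. The ranges overlapped, and the difference did not pass the test (log2 difference 0.18, SE 0.29, adjusted p = 0.654). Slc2a3 (GLUT3, a high-affinity transporter) lay at -2.48 to -0.31 over the lymphoma lines, with a median of -1.23, against 0.62 and 0.56 in untreated cells. All 9 lines were below both untreated samples, 3.45-fold lower on average (log2 difference -1.79, SE 0.41, adjusted p = 0.00378).

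In upper glycolysis 8 of 9 members were higher, and in lower glycolysis all 6. Tpi1, which interconverts the 2 triose phosphates, lay at 0.13 to 0.82 over the lymphoma lines, with a median of 0.57, against -2.81 in untreated ATMKO and -2.62 in untreated ATMWT cells. No line came near the untreated samples, and the difference was 9.71-fold (log2 difference 3.28, SE 0.15, adjusted p = 9.5e-08). Pgk1, the first enzyme of glycolysis that makes ATP, lay at 0.34 to 1.47 over the lymphoma lines, with a median of 0.85, against -2.15 and -2.19 (log2 difference 3.04, SE 0.24, adjusted p = 1.75e-06). Hk2, the inducible hexokinase that traps glucose in the cell, lay at 0.35 to 1.57 over the lymphoma lines, with a median of 1.12, against -1.57 and -2.07 (log2 difference 2.74, SE 0.33, adjusted p = 3.08e-05). The groups did not overlap for any of these. Pfkp, the platelet form of phosphofructokinase, differed by 2.66 (SE 0.20, adjusted p = 1.15e-06) on the log2 scale, Pkm, pyruvate kinase, by 2.53 (SE 0.27, adjusted p = 1.19e-05), and Ldha, which turns pyruvate into lactate, by 2.20 (SE 0.13, adjusted p = 7.2e-07) over 8 lines. The remaining called glycolytic enzymes differed by 0.98 (Gpi1) to 2.90 (Aldoc), with Pfkl, Aldoa, Hk1, Gapdh, Pgam1 and Eno1 between them. The 3 probes of Hk1 disagreed, with differences of -1.09 to 1.55. Pfkm, the muscle form of phosphofructokinase, did not pass the test (log2 difference 0.58, SE 0.43, adjusted p = 0.301), with line 1013 at -1.05 and line 1010 at -0.38, below both untreated samples.

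Genes of lactate export, of the block on pyruvate oxidation and of mitochondrial turnover were higher too, and Bnip3 had the largest difference of the 34. Slc16a3 (MCT4, the lactate exporter of glycolytic cells) lay at -3.12 to 0.90 over the lymphoma lines, with a median of 0.12, against -2.02 and -2.89 in untreated cells (log2 difference 2.24, SE 0.78, adjusted p = 0.0343). Line 1013 was below both untreated samples and the other 8 lines above them. Slc16a1 (MCT1, a carrier of lactate in both directions) did not pass the test (log2 difference 0.19, SE 0.12, adjusted p = 0.213). Pdk1, a kinase that shuts pyruvate dehydrogenase, lay at -0.0021 to 1.08 over the lymphoma lines, with a median of 0.71, against -1.12 and -1.18 (log2 difference 1.80, SE 0.24, adjusted p = 8.01e-05). Bnip3, a mitophagy receptor of the outer mitochondrial membrane and a classic HIF-1 target, lay at -0.14 to 1.98 over the lymphoma lines, with a median of 0.95, against -3.57 and -3.37. All 9 lines were more than 3 log2 units above both untreated samples, 20.6-fold on average (log2 difference 4.36, SE 0.39, adjusted p = 3.42e-06). Its 3 probes gave 2.51 to 4.36, the brightest the most. Its paralog Bnip3l differed by 1.35 (SE 0.30, adjusted p = 0.00267) and Higd1a, a hypoxia-induced mitochondrial protein, by 1.19 (SE 0.27, adjusted p = 0.00309).

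The other hypoxia-response genes were split. Ankrd37, a small ankyrin protein and HIF-1 target, lay at -1.35 to 0.83 over the lymphoma lines, with a median of -0.43, against -3.37 and -2.69 (log2 difference 2.74, SE 0.46, adjusted p = 0.000408). Adm, the secreted peptide adrenomedullin, lay at -0.81 to 1.89 over the lymphoma lines, with a median of 1.25, against -0.76 in untreated ATMKO and -2.09 in untreated ATMWT cells (log2 difference 2.49, SE 0.57, adjusted p = 0.00335). Line 1013 fell between the 2 untreated samples and the other 8 lines lay above both. Between arrays of 1 slide the Adm difference was 3.57, 0.093 and 2.97 on the 3 slides. Mif, a cytokine of many cell types, differed by 1.75 (SE 0.16, adjusted p = 4.73e-06), Ero1l, an oxidase for protein folding, by 1.58 (SE 0.26, adjusted p = 0.000381), P4ha1, a collagen prolyl hydroxylase, by 1.44 (SE 0.37, adjusted p = 0.00725) from a probe whose partner gave -0.34, and the oxygen sensor Egln1 by 0.61 (SE 0.17, adjusted p = 0.0127). No difference passed the test for Egln3 (3.10), P4ha2 (-0.14, with 4 of 12 lymphoma arrays above background), Ndrg1, a stress-induced gene (0.40), Vegfa, the vascular growth factor (0.72), or Ddit4 (REDD1), an inhibitor of mTOR (0.83). For Egln3 the SE was 1.35, since its lines spread over more than 5 log2 units.

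Markers of other cells moved with this comparison. The 8 neutrophil markers averaged 0.0927 to 0.227 times the pool in the lymphoma lines and 2.48 to 2.76 in untreated cells, and the 9 macrophage markers 0.207 to 0.46 and 1.64 to 1.88. The 9 erythroid markers averaged 0.295 to 0.44 and 2.41 to 3.08, the 7 T cell markers 0.229 to 0.8 and 1.73 to 1.87, the 6 NK cell markers 0.231 to 1.07 and 2.63 to 2.75, and the 6 stromal markers 0.458 to 0.607 and 1.81 to 2.38. All markers of these lists were well above background on every array of untreated cells. The erythroid Epb4.2, macrophage C1qa, T cell Cd8a, NK cell Klrd1 and Klra8 and stromal Col1a1, Col3a1, Fn1 and Vcam1 were above it on no lymphoma array. Their part in the members' differences was not tested. In bulk RNA, fewer cells of a type and less RNA per cell cannot be told apart.

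**Figure D2:**
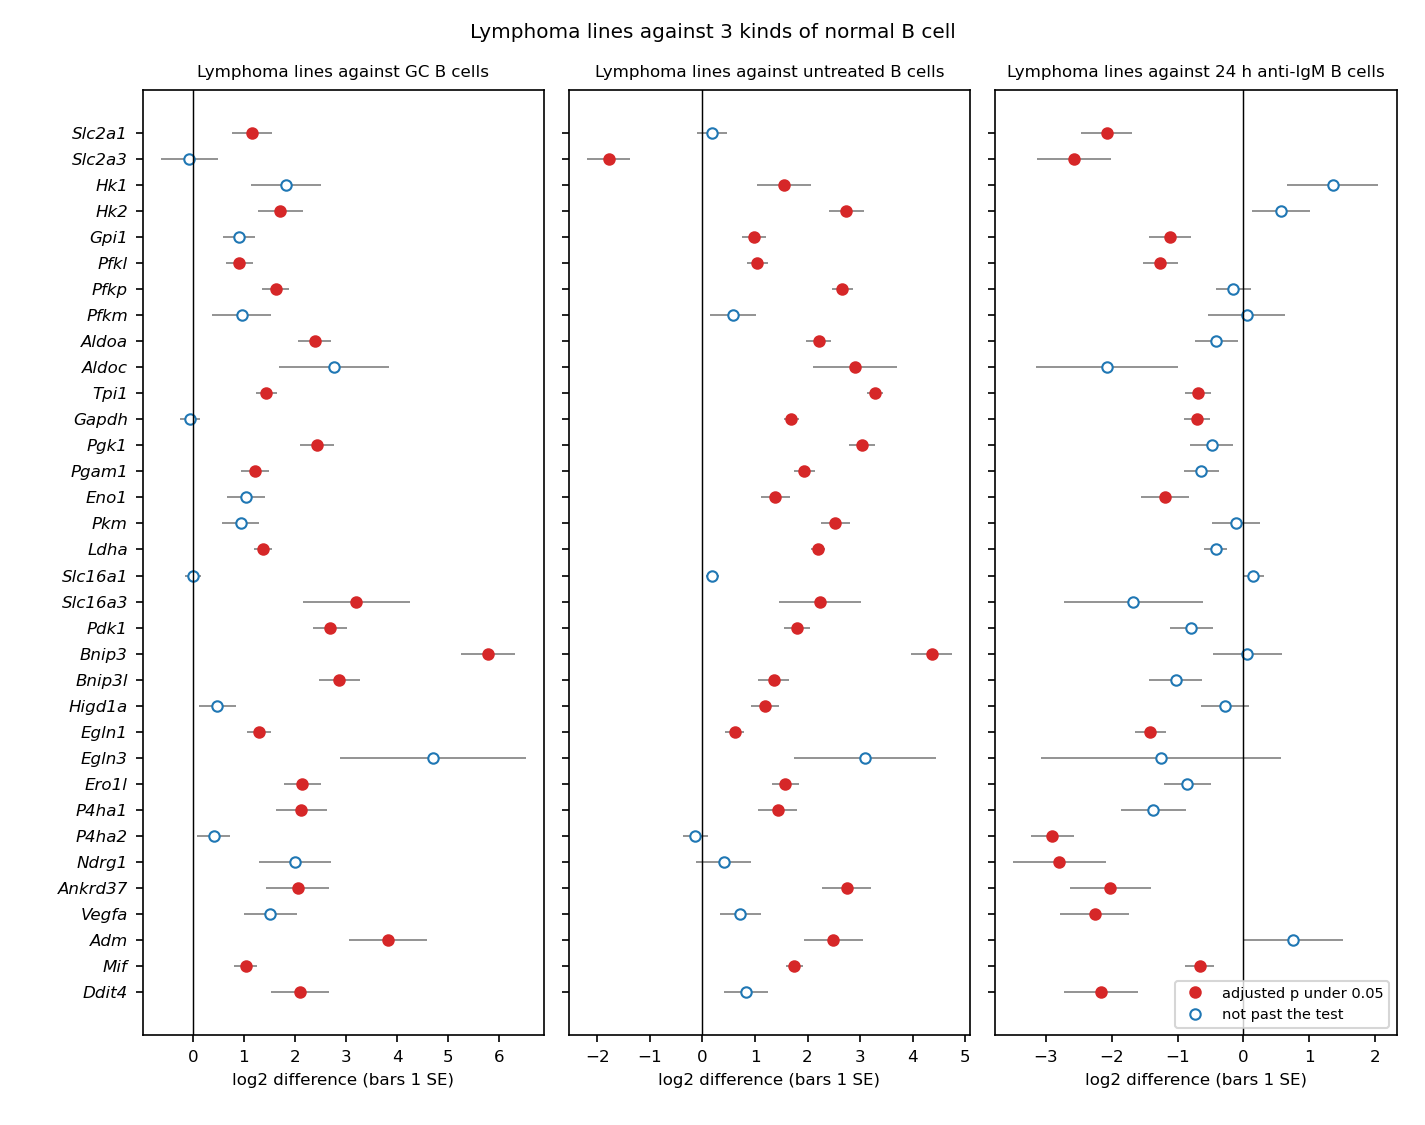
Log2 difference of the 9 lymphoma lines from GC B cells (left), untreated splenic B cells (middle) and 24 h anti-IgM B cells (right) for each gene, with bars of 1 SE. Filled red points passed the test (adjusted p under 0.05) and open blue points did not. Called points lie right of 0 against GC and untreated cells, with Slc2a3 against untreated cells as the exception, and left of 0 against 24 h anti-IgM cells.

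Against GC B cells, normal B cells that divide fast in the germinal centre, 20 members were higher in the lymphoma lines and 0 lower. Of all 21357 genes, 10.1% were higher and 12.4% lower. The members' median log2 difference was 1.57, against -0.013 over all genes, and for 29 members every measured line lay above the GC sample. The share of all genes with every line above that sample is not given here, so this count only describes the members. There is 1 GC sample, so its own spread is taken from the other groups. With all 3 GC arrays averaged, 14 members were called, all higher, and without the first array of line 1039 18 were, all higher.

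Bnip3, Adm and Slc16a3 had the largest differences that passed. Bnip3 lay at -0.14 to 1.98 over the lymphoma lines, with a median of 0.95, against -4.88 in GC B cells, a difference of 54.7-fold (log2 difference 5.77, SE 0.53, adjusted p = 3.9e-05). Its 3 probes gave 3.09 to 5.77, the brightest the most. Adm lay at -0.81 to 1.89 over the lymphoma lines, with a median of 1.25, against -2.75 (log2 difference 3.82, SE 0.76, adjusted p = 0.004). Slc16a3 lay at -3.12 to 0.90 over the lymphoma lines, with a median of 0.12, against -3.42 (log2 difference 3.20, SE 1.05, adjusted p = 0.046). The GC sample was the lowest of all 16 samples for these 3 genes and for 10 others, 13 members in all. The share of all genes lowest in that sample is not given here. Bnip3l differed by 2.87 (SE 0.40, adjusted p = 0.000501), Pdk1 by 2.69 (SE 0.33, adjusted p = 0.000241), Ero1l by 2.15 (SE 0.35, adjusted p = 0.00135) and P4ha1 by 2.13 (SE 0.50, adjusted p = 0.00951). The other P4ha1 probe gave 0.38. Also higher were Ankrd37 (2.05), Ddit4 (2.10), Egln1 (1.30), Mif (1.04) and the transporter Slc2a1 (1.16, adjusted p = 0.0491). Slc2a1 lay at -0.78 to 0.33 in the lines and -1.45 in GC cells, with no overlap.

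Glycolytic enzymes differed less evenly from GC cells. Aldoa, an aldolase, lay at 0.42 to 1.60 over the lymphoma lines, with a median of 0.97, against -1.41 (log2 difference 2.38, SE 0.33, adjusted p = 0.000453), and Pgk1 differed by 2.43 (SE 0.33, adjusted p = 0.000401). Hk2, Pfkp, Tpi1, Ldha, Pgam1 and Pfkl were higher by 0.91 (Pfkl) to 1.72 (Hk2). Gapdh lay at 0.17 to 0.76 over the lymphoma lines, with a median of 0.44, against 0.51 in GC cells, with 4 lines above that sample and 5 below (log2 difference -0.053, SE 0.20, adjusted p = 0.884). Its 8 probes gave log2 differences of -0.053 to 1.15, and the value above is that of the brightest. No difference passed the test for Hk1 (1.82), Gpi1 (0.90), Pfkm (0.96), Aldoc (2.76), Eno1 (1.04), Pkm (0.94), Slc16a1 (-0.0014), Slc2a3 (-0.068), Higd1a (0.48), Egln3 (4.70), Ndrg1 (2.00) or Vegfa (1.52). Egln3 was well above background on 1 of the 2 GC arrays, so its GC level lies near the floor and the size of its difference is uncertain. P4ha2 was well above background on 4 of the 12 lymphoma arrays and on neither GC array, so no fold is given. The neutrophil markers averaged 0.0927 to 0.227 times the pool in the lines and 0.0944 in GC cells, and the macrophage markers 0.207 to 0.46 and 0.201. GC and lymphoma samples thus had like, low levels of both lists.

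Few members differed between GC B cells and untreated B cells. Of 34 members 5 were higher and 1 lower, while 11.2% and 14.5% of all genes were higher and lower. These counts are near or below the shares over all genes, so they are no result about the members as a set. Gapdh and Tpi1 alone were called under every alternative. Tpi1 lay at -0.87 in GC cells, against -2.81 and -2.62 in untreated cells (log2 difference 1.84, SE 0.23, adjusted p = 0.000202), and Gapdh at 0.51, against -1.15 and -1.32 (log2 difference 1.75, SE 0.23, adjusted p = 0.000254). Pkm (1.59), Pfkp (1.04) and Ldha (0.84) were also higher. Bnip3l lay at -2.46, against -0.81 and -1.09, and was lower (log2 difference -1.51, SE 0.47, adjusted p = 0.0309). Bnip3 (-1.41), Adm (-1.33), Egln3 (-1.60) and Ndrg1 (-1.59) had negative differences that did not pass. The Egln3 probe was above background on 1 of the 2 GC arrays. Of the 14 hypoxia-response members 3 had positive differences from untreated cells, and of the 20 glycolysis members 13. Without the untreated ATMKO sample 3 members were called, and with all 3 GC arrays averaged 5, all higher. With median centring in place of loess 9 were higher and 0 lower. Neutrophil markers averaged 0.0944 times the pool in GC cells and 2.48 to 2.76 in untreated cells and macrophage markers 0.201 and 1.64 to 1.88. Erythroid markers averaged 0.305 and 2.41 to 3.08, and T cell markers 0.349 and 1.73 to 1.87. NK cell markers averaged 0.255 and 2.63 to 2.75, and stromal markers 0.507 and 1.81 to 2.38. The part of these lists in the members' differences was not tested.

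Anti-IgM stimulation of splenic B cells changed the members in a different way at each time, so the times were tested one by one, in a fit of the 6 splenic samples with genotype as a term. The fit has 1 residual degree of freedom, the 3 h and 24 h values rest on 1 ATMKO sample each, and no sample could be left out of it in turn.

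At 3 h most members that changed were lower. Of 34 members 9 were lower and 1 higher, while 13.7% of all 22075 genes were lower and 5.48% higher. The members' median was -0.46, against -0.099 over all genes. Eno1 (enolase) lay at -1.91 in 3 h cells, against -0.67 and -0.85 in untreated ATMKO and ATMWT cells (log2 difference -1.26, SE 0.15, adjusted p = 0.013). Higd1a lay at -2.07, against -0.97 and -0.78 (log2 difference -1.11, SE 0.15, adjusted p = 0.0144), and Bnip3 at -4.61, against -3.57 and -3.37 (log2 difference -1.08, SE 0.15, adjusted p = 0.0155). In each case the 3 h sample was below both untreated samples. Tpi1, Gapdh, Ldha, Pfkm, Pdk1 and Bnip3l were lower by -0.90 (Tpi1) to -0.70 (Pdk1). Adm ran the other way, at 1.53 in 3 h cells, against -0.76 in untreated ATMKO and -2.09 in untreated ATMWT cells (log2 difference 2.45, SE 0.24, adjusted p = 0.0122). Between the 2 ATMKO samples of 1 slide its difference was 1.05. These calls depended on the processing. None was made from the scanner software's processed signals or from the deposited log ratios, and 2 were made in the fit of all 16 samples. The B cell markers averaged 0.706 times the pool in 3 h cells and 1.32 to 1.39 in untreated cells, the neutrophil markers 3.02 and 2.48 to 2.76, the macrophage markers 1.19 and 1.64 to 1.88, and the erythroid markers 2.01 and 2.41 to 3.08. All markers of these 4 lists were above background, and their part in the members' values was not tested.

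At 6 h most of glycolysis was higher. Of 34 members 21 were higher and 4 lower, against 12.2% and 16.6% of all genes, with a members' median of 0.67 against -0.051 over all genes. Ldha lay at 0.53 in ATMKO and 0.41 in ATMWT cells at 6 h, against -1.39 and -1.53 untreated (log2 difference 1.93, SE 0.11, adjusted p = 0.00222). Mif lay at 0.39 and 0.33, against -1.57 and -1.50 (log2 difference 1.90, SE 0.12, adjusted p = 0.00231). Ankrd37 lay at -0.87 and -0.78, against -3.37 and -2.69 (log2 difference 2.20, SE 0.17, adjusted p = 0.00276). For all 3 genes 6 h cells of both genotypes lay more than 1 log2 unit above untreated cells. All 6 members of lower glycolysis were higher, from 0.48 (Eno1) to 1.93 (Ldha). Upper glycolysis was mixed, with Pfkp (1.58), Tpi1 (1.39), Hk2 (1.31), Aldoa (0.85) and Pfkl (0.77) higher, and Pfkm (-0.80) and Hk1 (-0.54) lower. Slc2a3 lay at -0.28 and -0.37, against 0.62 and 0.56, and was lower (log2 difference -0.92, SE 0.11, adjusted p = 0.00631). Vegfa (1.12), Bnip3 (0.96), Egln3 (0.78), Ero1l (0.72), Adm (0.70), Higd1a (0.64), P4ha1 (0.59) and Ndrg1 (0.53) were higher, and P4ha2 was called lower, though only 1 of 3 arrays at 6 h had it above background, so no size is given. Between arrays of 1 slide, Adm and Egln3 had the opposite sign on 1 of 3 slides (-0.94 and -0.0026), and the other 23 called members kept their sign on all 3. In the fit of all 16 samples 8 members were called, and 13 from the processed signals. Marker signal moved with this comparison too. B cell markers averaged 0.568 to 0.573 times the pool in 6 h cells and 1.32 to 1.39 in untreated cells, neutrophil markers 1.44 to 1.47 and 2.48 to 2.76, macrophage markers 0.821 to 0.952 and 1.64 to 1.88, and erythroid markers 0.711 to 1.03 and 2.41 to 3.08. T cell markers averaged 0.974 to 1.05 and 1.73 to 1.87, NK cell markers 1.19 to 1.2 and 2.63 to 2.75, and stromal markers 0.752 to 0.82 and 1.81 to 2.38, with Col3a1 above background on no 6 h array. Their part in the members' values was not tested.

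At 24 h every member lay above untreated cells. Of 34 members 31 passed the test and all 34 differences were positive, against 5% of all genes called higher and 4.51% lower. The members' median was 2.54, against -0.041 over all genes. Ankrd37 lay at 1.74 in 24 h ATMKO cells, against -3.37 and -2.69 untreated, 31.1-fold higher (log2 difference 4.96, SE 0.23, adjusted p = 0.00276). Aldoc, an aldolase best known from brain, lay at 1.95, against -2.92 and -3.14, 29.4-fold higher (log2 difference 4.88, SE 0.15, adjusted p = 0.00192). Bnip3 lay at 0.84, against -3.57 and -3.37 (log2 difference 4.37, SE 0.15, adjusted p = 0.00219). The 24 h sample stood above both untreated samples for each of the 3. Egln3, an oxygen sensor that HIF-1 itself induces, lay at 1.31, against -2.84 and -3.25 (log2 difference 4.31, SE 0.24, adjusted p = 0.00358). Tpi1 was 16-fold higher, and log2 differences of 3.76 (Slc16a3), 3.41 (Pgk1), 3.30 (Ddit4) and 3.23 (Ndrg1) followed. Both glucose transporters rose, Slc2a1 by 2.06 (SE 0.33, adjusted p = 0.0289) and Slc2a3 by 0.75 (SE 0.15, adjusted p = 0.0443). Pfkm (0.46), Hk1 (0.22) and Slc16a1 (0.083) did not pass. The other probes of Hk1 had means of 0.30 and 0.21 in untreated cells, and lay at 1.44 and 1.26 at 24 h.

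The 24 h value rests on 1 sample. Set against the only untreated array of its slide, which is of the other genotype, all 31 called members kept their sign, with a members' median of 2.62. From the scanner software's processed signals 11 members were called, and 8 members were called under every alternative: Ankrd37, Bnip3, Ero1l, P4ha1, Pdk1, Pfkp, Pgk1 and Tpi1. The macrophage markers averaged 2.68 times the pool in the 24 h sample and 1.64 to 1.88 in untreated cells, the neutrophil markers 1.37 and 2.48 to 2.76, and the erythroid markers 0.398 and 2.41 to 3.08. Stromal markers averaged 1.7 and 1.81 to 2.38, B cell markers 1.1 and 1.32 to 1.39, T cell markers 1.26 and 1.73 to 1.87, and NK cell markers 0.75 and 2.63 to 2.75. The 24 h sample thus had the highest average of macrophage markers of the splenic samples, with all 9 above background. The list was split. C1qa (log2 0.28 at 24 h, 1.42 on average in untreated cells) and C1qb (0.21 and 1.14) were lower at 24 h, and the other macrophage markers were higher. The part of these lists in the members' values was not tested.

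**Figure D3:**
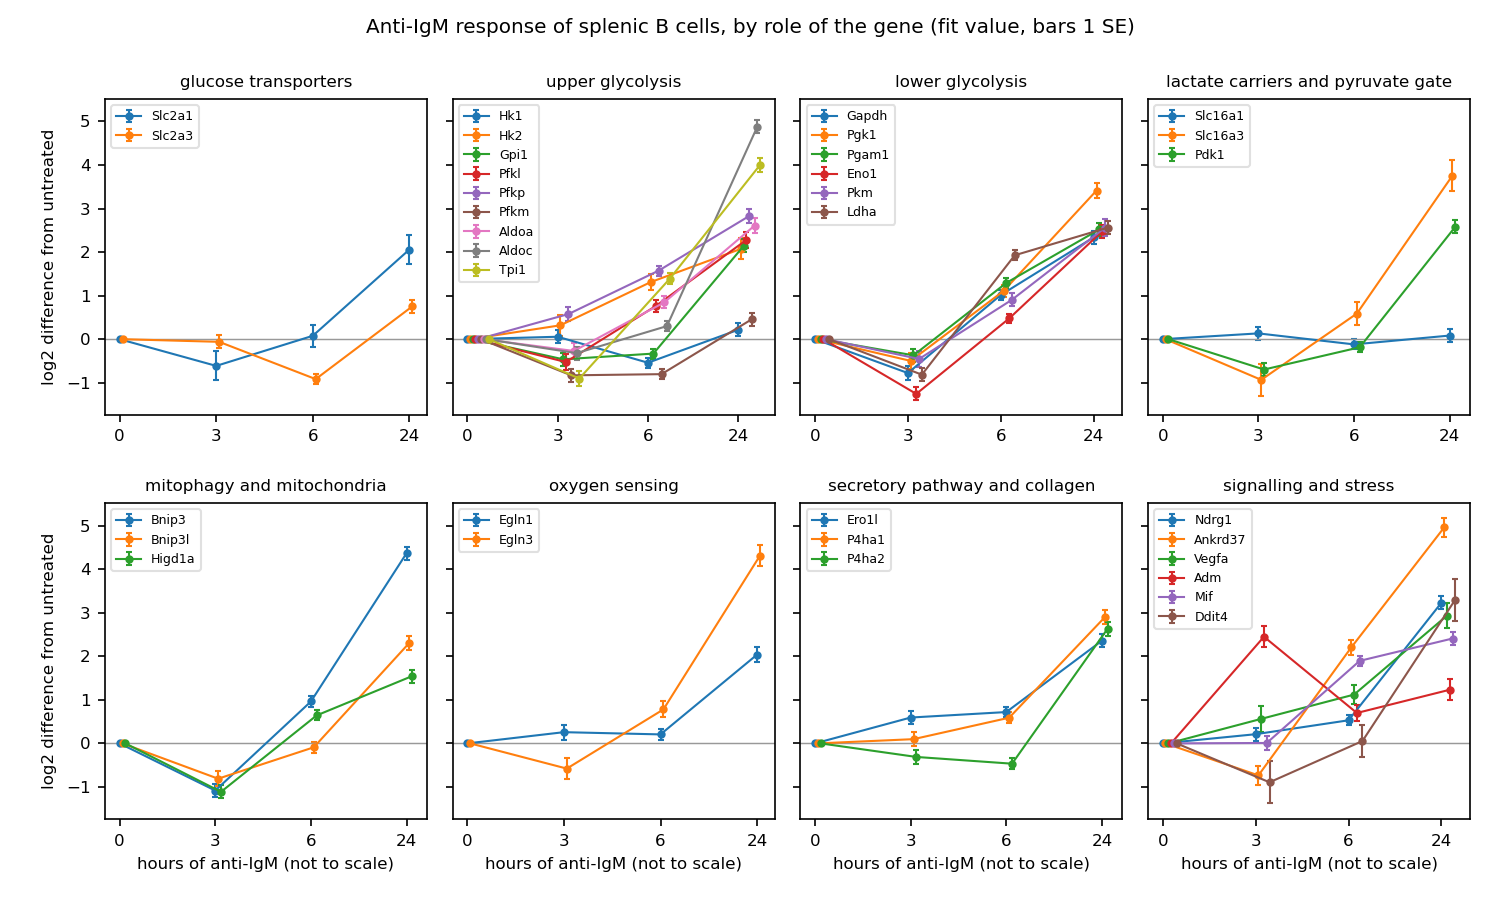
Log2 difference of anti-IgM-stimulated from untreated splenic B cells at 3, 6 and 24 h, with untreated cells at 0 and bars of 1 SE, in 1 panel per role. Most genes are at or below 0 at 3 h and above 0 at 6 h, and all lie above 0 at 24 h. Adm is highest at 3 h and Slc16a1 stays near 0.

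Averaged over the 3 times with equal weight, 24 members were higher and 0 lower, against 3.76% and 8.98% of all genes. That mean joins the lower 3 h and the higher 24 h values of genes such as Bnip3 and Eno1, and 31 of the 34 means were positive. Ankrd37 (2.14), Pfkp (1.66) and Aldoc (1.62) had the largest. From the scanner software's processed signals none of these calls was made, and none of the 24 was made under every alternative.

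Set against stimulated cells, most members that passed were higher in the lymphoma lines than in 3 h and 6 h cells, and all 14 that passed were lower in the lines than in 24 h cells. These comparisons share the lymphoma lines, so their counts are not independent of each other. Against 3 h cells 22 members were higher and 1 (Slc2a3) lower, while 18.7% and 19% of all genes were higher and lower. Against 6 h cells 19 were higher and 0 lower, while 19.1% and 25.3% of all genes were. Against 24 h cells 0 were higher and 14 lower, while 13.5% and 18.3% of all genes were. Against 6 h cells 11 members were called without the 6 h ATMKO sample and 12 without the 6 h ATMWT sample. The members' medians in these comparisons were 2.09, 0.89 and -0.82, and those over all genes 0.028, -0.0055 and -0.011.

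For the members that did not pass against 24 h cells, the lines lay below, around or above the 24 h level. Bnip3 lay at -0.14 to 1.98 over the lymphoma lines, with a median of 0.95, and at 0.84 in 24 h cells, with 5 lines above and 4 below (log2 difference 0.059, SE 0.53, adjusted p = 0.945). Pfkp had 3 lines above that level, Pkm 4, Pfkm 6, Slc16a1 7, and Hk1 and Adm 8 each. The Hk1 count is that of its brightest probe. Its other probes went the other way, with means of -0.79 and -0.062 in the lines, against 1.44 and 1.26 in 24 h cells. Hk2 was above the 24 h cells in all 9 lines without passing the test (log2 difference 0.57, SE 0.44, adjusted p = 0.36). Slc2a3 (-2.58) and Slc2a1 (-2.08) were lower in the lines than in 24 h cells, as were Eno1 (-1.20), Pfkl (-1.26), Gpi1 (-1.12), Gapdh (-0.70) and Tpi1 (-0.69). Of the hypoxia-response genes, Ndrg1 (-2.80), Vegfa (-2.26), Ddit4 (-2.17), Ankrd37 (-2.02), Egln1 (-1.42) and Mif (-0.66) were lower. P4ha2 was called lower too, but was above background on 4 of the 12 lymphoma arrays, so no size is given. Vegfa lay at -1.16 to 0.66 over the lymphoma lines, with a median of -0.41, against 1.82 in 24 h cells (log2 difference -2.26, SE 0.53, adjusted p = 0.00617), and Ndrg1 at -2.43 to 0.20 over the lymphoma lines, with a median of -0.78, against 1.98 (log2 difference -2.80, SE 0.71, adjusted p = 0.00968). All 9 lines were below the 24 h sample for both genes in the probes used. The other, dimmer Vegfa probe differed far less, with means of 0.42 in the lines and 0.78 in the 24 h sample. For 21 members all measured lines lay below it and for 1, Hk2, above it. The share of all genes so placed is not given here, so both counts only describe the members. Vegfa, Ndrg1 and Ddit4 are among the genes that the lines did not raise over untreated cells with a passing test. Macrophage markers averaged 0.207 to 0.46 times the pool in the lines and 2.68 in the 24 h sample, and their part was not tested.

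Genes of the same pathways outside the 34 were split in direction in the lymphoma lines. Of all genes, 18.4% were higher and 24.9% lower in the lines than in untreated cells, and 5% and 4.51% at 24 h of anti-IgM, and counts near those shares are no result about a list. Of 23 other glycolysis and glucose genes tested, 5 were higher and 9 lower in the lines than in untreated cells, and 8 higher and 1 lower at 24 h of anti-IgM. Of the 24 or 25 other HIF targets tested, 8 were higher and 4 lower in the lines than in untreated cells, and 10 higher and 1 lower at 24 h. Of 10 regulators of HIF, 2 were higher and 2 lower in the lines, and 1 was higher and 0 lower at 24 h. Of 24 genes of pyruvate entry and the citrate cycle, 6 were higher and 3 lower in the lines, and 0 higher and 2 lower at 24 h. Of the 7 genes of the pentose phosphate pathway, 2 were higher and 2 lower in the lines, and none changed in either direction at 24 h. The median difference of the other glycolysis genes was -0.011 in the lines and 0.47 at 24 h, and that of the other HIF targets -0.12 and 0.63.

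Most members varied more among the 9 lymphoma lines than the median gene. The SD over lines was below the median of all genes tested, 0.24, for 5 members: Slc16a1, Ldha (0.17), Gapdh (0.20), Tpi1 (0.20) and Mif. It was 2.15 for Egln3, 1.26 for Aldoc, 1.22 for Slc16a3, 0.83 for Ndrg1 and 0.81 for Adm. Egln3 lay at 2.31 in line 1019, 2.30 in 1016, 1.94 in 1004 and 1.92 in 1036, and at -0.02 in 1010, -0.72 in 1001, -1.67 in 1039, -2.46 in 1013 and -3.07 in 1007. The first 4 lines lay above the 24 h anti-IgM sample (1.31), while 1007 was near untreated cells (-2.84 and -3.25). Aldoc lay at -2.30 in line 1013 and -2.05 in line 1010, and at -0.33 to 1.06 in the other 7. Slc16a3 lay at -3.12 in line 1013, near the GC sample (-3.42), and at -0.87 to 0.90 in the other 8. Line 1013 was thus the lowest line for Aldoc, Slc16a3, Ndrg1, Adm and Pfkm, yet the highest for Pgk1 (1.47) and P4ha1 (0.86).

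Line 1010 was the highest line for 11 members, among them Bnip3 (1.98), Vegfa (0.66), Ankrd37 (0.83) and Aldoa (1.60), and the lowest for Slc2a3 (-2.48). Line 1039 was the lowest for 10 members, and for 8 when its second array stood alone. Its first array had few spots above background and correlated with the second at 0.35 across genes. Its Egln3 value was -1.67 as the mean of both arrays and -3.04 on the second, the first being below background for that probe. Line 1007 was the lowest for Bnip3 (-0.14), Bnip3l (-0.31), Ero1l (-0.28), Egln1 (-0.39), Egln3 and Ankrd37, and the highest for Hk1 (1.90) and Gapdh (0.76). Each line is 1 culture, so its own spread is not measured.

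**Figure D4:**
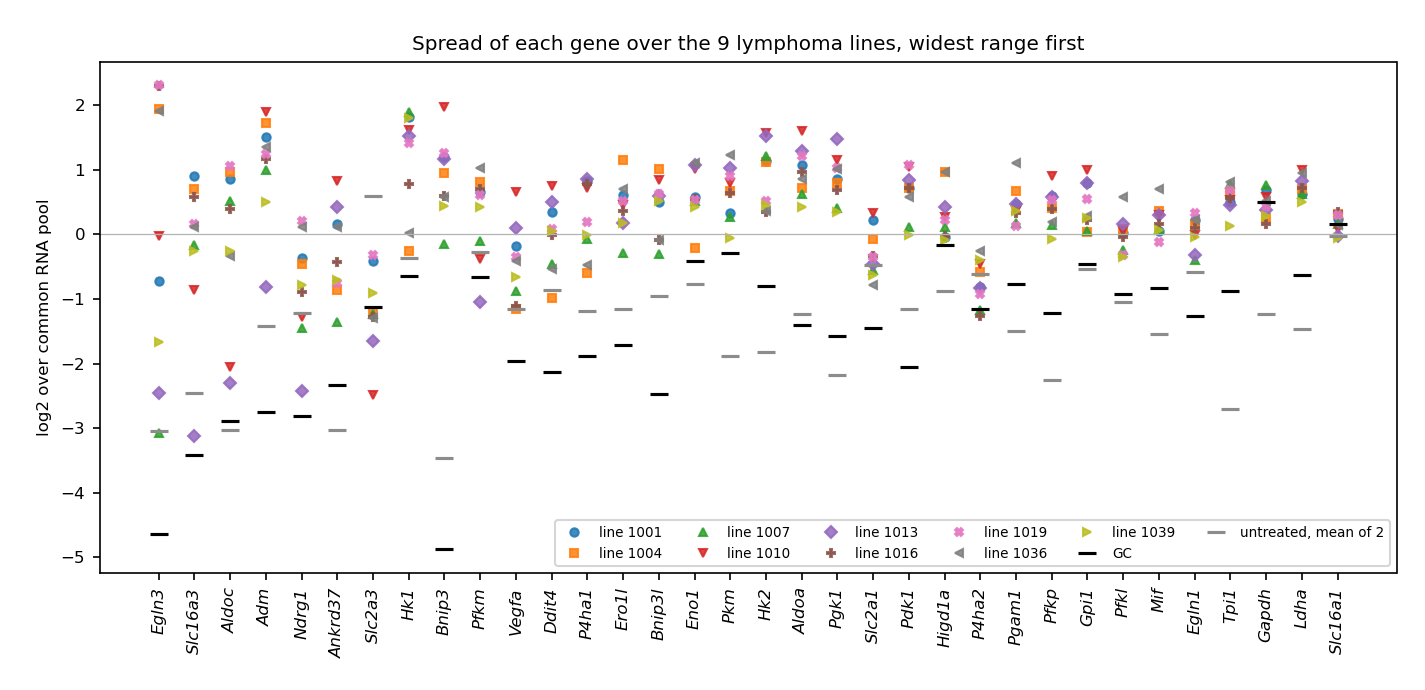
Level of each gene in the 9 lymphoma lines (symbols), the GC sample (black bar) and the mean of 2 untreated samples (grey bar), as log2 over the RNA pool, ordered by the range over lines. Egln3, Slc16a3 and Aldoc at the left spread over more than 3 log2 units, and Ldha and Slc16a1 at the right over less than 0.5.

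With PCI-32765, many glycolytic and hypoxia-response genes were lower than with DMSO in lymphoma lines 178119 and 28545 from 6 h on, while Adm was already lower at 3 h. Of the 34 members 30 were tested. P4ha2 was left out as too dim, and Gpi1, Gapdh and Eno1 because the scanner software had flagged their brightest probe as an outlier on 3 of 8 arrays. Over the mean of 4 times 14 were lower and 1 higher than with DMSO, while 16% of all 18974 genes were lower and 17.3% higher. The members' median was -0.23, against 0.0052 over all genes.

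At 1 h 1 member, Adm, was lower and 0 higher, against 0.211% and 0.179% of all genes. Adm, log2 over DMSO, was -0.79, -1.40, -0.88 and -0.54 at 1, 3, 6 and 24 h in line 178119 and -0.47, -1.42, -1.04 and -0.65 in line 28545. All 8 values were negative, lowest at 3 h in both lines. The fit gave -0.63 (SE 0.10, adjusted p = 0.0446) at 1 h, -1.41 (SE 0.10, adjusted p = 9.96e-05) at 3 h, -0.96 (SE 0.10, adjusted p = 0.000331) at 6 h and -0.59 (SE 0.10, adjusted p = 0.0039) at 24 h. With line as a term (replicate block) 0 members were called at 1 h, and leaving out 1 array at a time gave 0 in 7 of 8 fits and 2 without line 28545 at 1 h. At 3 h 1 member, Adm, was lower and 1, Ddit4, higher, against 4.18% and 3.43% of all genes. Ddit4, the mTOR inhibitor, was 0.21, 0.41, 0.43 and -0.22 in line 178119 and 0.12, 0.54, 0.25 and -0.23 in line 28545. It was above DMSO up to 6 h in both lines and below it at 24 h, with a passing test at 3 h (0.47) and 6 h (0.34). Without either 3 h array 1 member, Adm, was called at 3 h.

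At 6 h 10 members were lower and 1 higher, against 12.6% and 12.5% of all genes. With each array centred on its median in place of loess, 4 were lower and 6 higher, and Pkm turned to 0.25. The median over all genes at 6 h was then 0.25 and that of the members 0.18. Vegfa was 0.18, -0.077, -1.15 and -1.11 at 1, 3, 6 and 24 h in line 178119 and 0.17, -0.27, -0.74 and -1.42 in line 28545. Both lines were above 0 at 1 h and below -0.7 at 6 h and 24 h, and the fit gave -0.95 (SE 0.12, adjusted p = 0.000772) at 6 h. Pfkl, the liver form of phosphofructokinase, was 0.042, 0.14, -1.02 and -0.80 in line 178119 and 0.60, -0.19, -0.91 and -0.54 in line 28545 (log2 difference -0.97, SE 0.14, adjusted p = 0.00139 at 6 h). Ero1l was 0.49, -0.17, -1.25 and -0.12 in line 178119 and 0.36, -0.43, -0.68 and -0.43 in line 28545 (log2 difference -0.96, SE 0.14, adjusted p = 0.00141 at 6 h). Ero1l had its lowest value at 6 h in both lines. Hk2 (-0.81), Pfkp (-0.67), Tpi1 (-0.67), Pkm (-0.38), Pdk1 (-0.59), Ankrd37 (-0.95) and Adm were also lower.

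At 24 h 14 members were lower and 0 higher, against 12.9% and 11.8% of all genes, with a members' median of -0.46 against -0.0083 over all genes. The lactate exporter Slc16a3 was 0.61, 0.19, -0.93 and -3.18 in line 178119 and 0.059, -0.06, -0.37 and -1.48 in line 28545, 5.03-fold lower at 24 h (log2 difference -2.33, SE 0.31, adjusted p = 0.00119). Ankrd37 was -0.017, -0.14, -1.06 and -1.95 in line 178119 and -0.089, -0.31, -0.84 and -0.86 in line 28545 (log2 difference -1.41, SE 0.20, adjusted p = 0.00151). Both genes were within 0.7 of 0 at 1 h and 3 h and negative in both lines at 6 h and 24 h. Bnip3, log2 over DMSO, was -0.17, -0.50 and -1.90 at 3, 6 and 24 h in line 178119 (no value at 1 h), and -0.27, -0.30, 0.021 and -0.63 at 1, 3, 6 and 24 h in line 28545 (log2 difference -1.27, SE 0.25, adjusted p = 0.00772). Vegfa (-1.26), Tpi1 (-1.21), Mif (-1.09), Pkm (-0.82), Pdk1 (-0.73), Pfkl (-0.67), Higd1a (-0.65), Adm, Pgk1 (-0.55), P4ha1 (-0.47) and Pfkp (-0.40) were also lower. Egln3 (0.12), Ndrg1 (0.11), Slc16a1 (0.18), Slc2a1 (0.029) and Slc2a3 (-0.053) did not pass. Without line 178119 at 24 h 9 members were called at 24 h, and at 6 h 5 were called without the 6 h array of line 178119 and 7 without that of line 28545. Mif, Pkm and Pgk1 had a 1 h value in line 28545 only, so their change from 1 h sets both lines at 24 h against that line. In line 28545 alone they lay at 0.36, 0.61 and 0.50 at 1 h and at -0.82, -0.68 and -0.39 at 24 h. Between 1 h and 24 h 8 members moved lower and 0 higher, against 3.92% and 3.59% of all genes: Slc16a3 (-2.67), Mif (-1.45), Vegfa (-1.44), Pkm (-1.42), Ankrd37 (-1.35), Pgk1 (-1.06), Pfkl (-0.99) and Pdk1 (-0.90). For that change 5 members were called without line 178119 at 1 h and 3 without line 28545 at 1 h.

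Outlier flags and saturated spots limit the drug data. The brightest probe of 13 members lacked a value on at least 1 of 8 arrays through an outlier flag, and that of 7 members was saturated in Cy5 on 1 or 2 arrays. In probes without such a spot, Gapdh at 24 h was -0.57 in line 178119 and -0.57 in line 28545 (adjusted p = 0.00346), and Ldha -1.19 and -0.60 (adjusted p = 0.00133). The brightest Ldha probe gave -0.96 and 0.049 at 24 h, and the brightest Gapdh probe -0.14 and 0.20. Gpi1 went the other way, with 0.12 and 0.49 at 24 h in its brightest probe and values above 0 in its other probes. Eno1 gave -0.37 and -0.082 in its brightest probe. The untested enzymes thus had no common direction. The sign of the drug differences also depended on how the arrays were centred. With each array centred on its median in place of loess, the median over all genes was 0.31 at 24 h and 0.44 over the mean of 4 times, and 10 of the 14 members that were lower over that mean turned positive. Over that mean 21 members were then called higher and 2 lower, at 1 h 23 higher and 0 lower, and at 3 h 24 higher and 1 lower. The members' median over that mean was then 0.46. At 1 h and 3 h it was 0.95 and 0.72, against 0.62 over all genes at both times. The share of all genes called under that centring is not given here, so these counts are no result about the members. At 24 h 12 of the 14 members called lower stayed negative and Pfkp (0.068) and Pgk1 (0.069) turned positive. Of the 14, Slc16a3 (-1.91), Vegfa (-0.94), Bnip3 (-0.83) and Ankrd37 were still called lower, and 3 other members were called higher.

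The lines did not differ with a passing test. No member and 0% of all genes were called between the lines, in either direction (limma). At an unadjusted p under 0.05 there were 6 of 30 members and 680 of 18974 genes, and the design has 1 array per line and time. The 6 members were Aldoa, Bnip3, Egln3, Hk1, Ldha and Pgam1. The probes used for Aldoa, Hk1, Ldha and Pgam1 were saturated in Cy5 on a drug array. In probes without saturated or flagged spots the line difference was -0.039 (SE 0.13) for Hk1, -0.21 (SE 0.12) for Ldha and -0.29 (SE 0.15) for Bnip3. Aldoa and Pgam1 had no such probe. Aldoa had the largest difference, with -1.53 and -0.19 at 1 h and 24 h in line 178119 (no value at 3 h and 6 h), and 0.53, 0.54, 0.27 and 0.026 in line 28545 (log2 difference -1.13, SE 0.37, adjusted p = 1). Its 1 h value in line 178119 comes from the array with the highest share of saturated spots, 0.691% of the sample channel. The mean of Slc16a3 differed by -0.36 (SE 0.30, adjusted p = 1) between the lines.

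**Figure D5:**
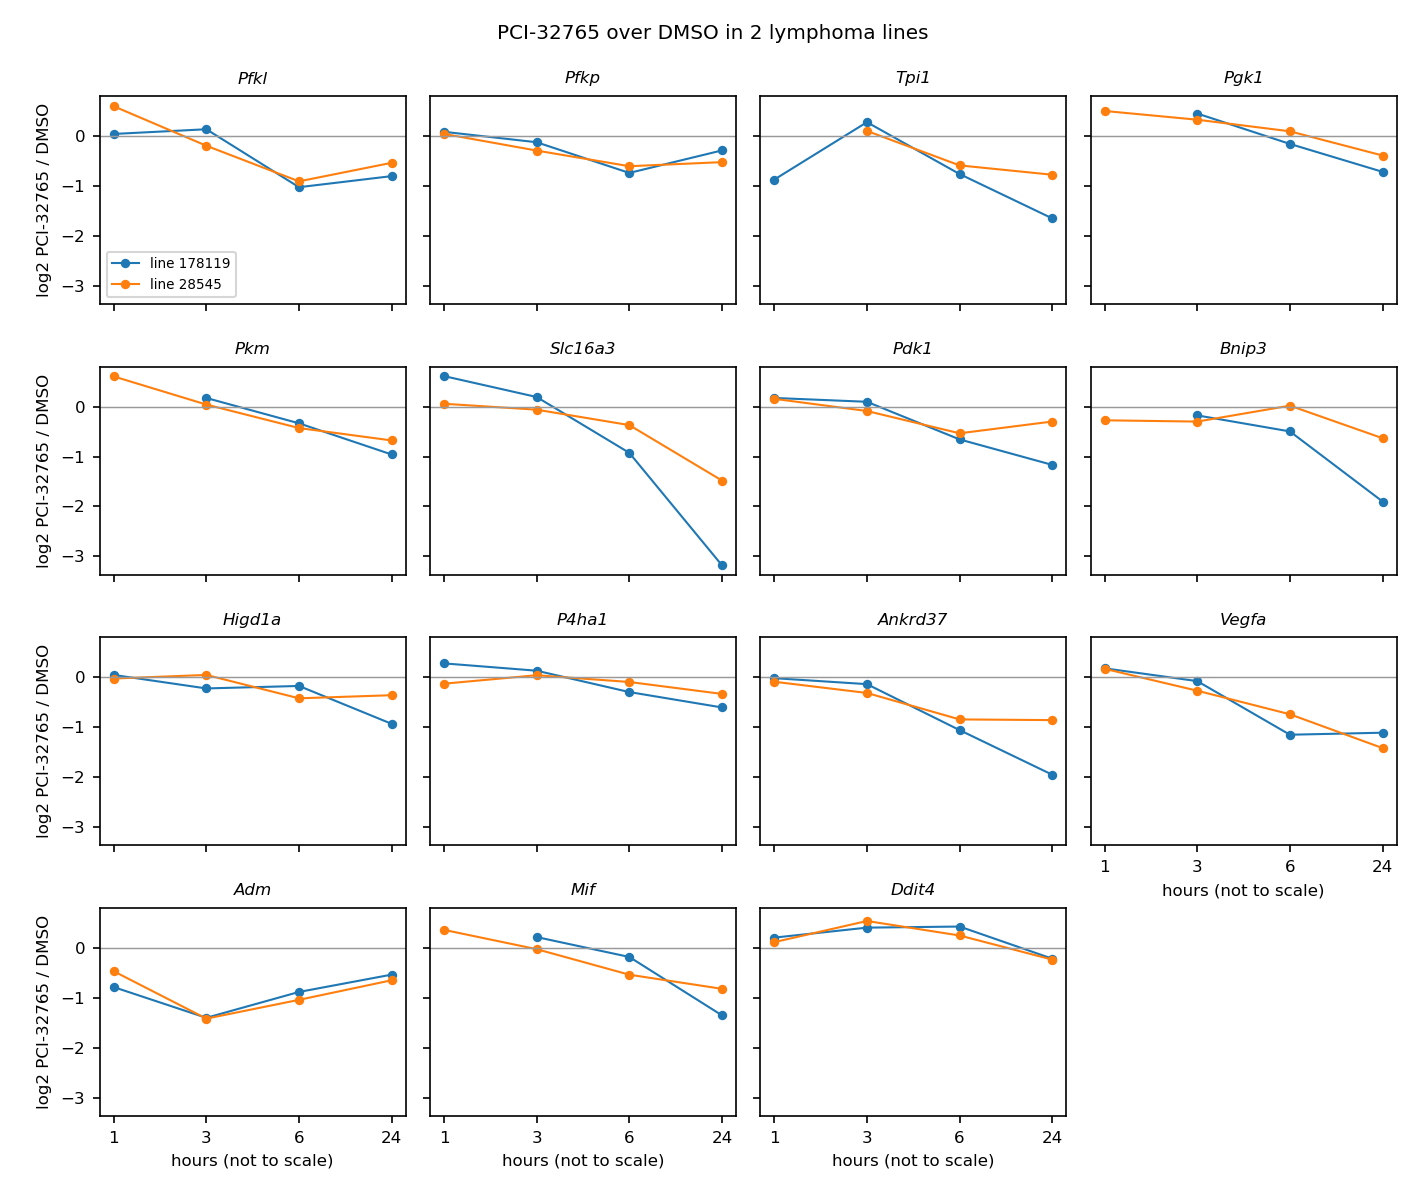
Log2 of PCI-32765 over DMSO at 1, 3, 6 and 24 h in lines 178119 (blue) and 28545 (orange) for the 14 genes called at 24 h and Ddit4; missing points had no usable value. Slc16a3 reaches -3.18 and -1.48 at 24 h, Adm is lowest at 3 h in both lines, and Ddit4 lies above 0 until 6 h.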

How the data were processed

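Total RNA was labelled and hybridised to 32 Agilent 2-colour arrays of 62976 spots. The deposited scanner files hold a Cy5 and a Cy3 intensity per spot, written by Feature Extraction 10.1.1.1 with protocol GE2-v5_10_Apr08 per the file headers, while the submitters' processing notes name version 9.1 and limma. The authors' deposited series table holds log10 ratios of Cy5 over Cy3 that equal the scanner's own within 0.0005, so scale and direction are known, and its column medians lie at -0.083 to 0.058. Dyes were not swapped, so a dye effect of a probe does not cancel in the drug data.

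From the deposited intensities, log2 ratios were made with limma 3.58.1 in R 4.3.3 (normexp, offset 50, then loess within arrays, control and outlier spots at weight 0). Spots of a probe and repeat arrays of a sample were averaged, and outlier spots left out. A gene entered a fit if at least a share of 0.5 of its arrays flagged the brightest probe as well above background in Cy5 or Cy3. Differences were tested with lmFit and eBayes (limma) and Benjamini-Hochberg adjustment at 0.05 over all genes, in fits of 16 pool samples (21357 genes, 10 residual degrees of freedom), 6 splenic samples (22075 genes) and 8 drug arrays (18974 genes). The number of arrays limits the precision. The scripts were tested on simulated data.

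Members that pass are named in each comparison and the others given by value, range or count. The members and lists were chosen with earlier results of these data known. For the 6 h anti-IgM samples 1 treatment field gives 3 h, and the sample names and the protocol's own sentence, which give 6 h, were followed. Drug arrays pair by cell line. The line differences correlated across probes between times at 0.24 (1 and 3 h), -0.33 (1 and 6 h), -0.36 (3 and 6 h), 0.017 (1 and 24 h), 0.048 (3 and 24 h) and 0.13 (6 and 24 h). Alternatives changed the signals, centring, filter, probes, samples, slide and line terms.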

Additional observations from a re-analysis of the deposited data

Results flagged for a closer look

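Slc16a3 in lymphoma line 1013 lay apart from the other lines, at -3.12 on the log2 scale against the pool, with the next line, 1010, at -0.87. The gap was 0.56 of the range over lines, and chance flags about 1 in 20 of the 34 genes looked at in this way. The 2 probes of Slc16a3 gave lymphoma minus GC differences of 2.95 to 3.20.

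The PCI-32765 values of Aldoa lay on opposite sides of 0 in the 2 lines, with -1.13 on the log2 scale for line 178119 minus line 28545 over the mean of the times measured. The values of line 178119 were below 0 at both times measured and those of line 28545 above 0 at all 4. The difference was tested and did not pass across all genes (limma, adjusted p = 1). Line 178119 gave 2 values, 1 of them from the array with the most saturated spots, and the probe was saturated in Cy5 on 1 drug array.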

How the results depend on the processing

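Of 3992 values of the 249 member calls under the alternatives, 3533 kept direction and call, 444 kept direction only and 15 changed sign, all 15 under median centring in place of loess. These were, over the mean of drug times, Bnip3 0.14, Egln1 0.13, Ero1l 0.20, Higd1a 0.55, Hk2 0.20, Mif 0.63, Pdk1 0.26, Pfkl 0.21, Pfkp 0.38 and Tpi1 0.28, then Adm 0.16 at 1 h, Pkm 0.25 at 6 h, Pfkp 0.068 and Pgk1 0.069 at 24 h, and Hk1 0.0078 at 6 h of anti-IgM. That centring moved the median of all genes by more than 0.1 in the drug data, to 0.62 at 1 h and 3 h, 0.25 at 6 h and 0.31 at 24 h.

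Counts of members called moved by over 1.5 times as follows. The shares of all genes called under these settings are not given here. From the scanner's processed signals, 9 were called for lymphoma against 24 h anti-IgM cells, 0, 13 and 11 at 3, 6 and 24 h of anti-IgM, 0 for the mean of its times, 0, 5 and 8 at 1, 6 and 24 h of PCI-32765 and 1 between 1 and 24 h. With median centring they were 9 for lymphoma against 24 h cells, 18 at 3 h of anti-IgM, 23 for the drug mean (21 higher, 2 lower), and 23, 25 and 7 at 1, 3 and 24 h of the drug. With the deposited log ratios they were 0 and 16 at 3 and 6 h of anti-IgM, 9 for its mean, 0 at 1 h of the drug and 2 between 1 and 24 h. Genes above background on every array gave 13 against GC cells, 15 against 3 h and 9 against 24 h anti-IgM cells. The fit of all 16 samples gave 2 and 8 at 3 and 6 h of anti-IgM and 9 for its mean. Probes free of saturated spots, an alternative chosen after seeing the data, gave 0 at 1 h of the drug. The split of the drug mean was 5 higher and 8 lower from the processed signals, and that at 6 h 6 higher and 4 lower with median centring.

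With line as a term (replicate block) 0 members were called at 1 h and no other count moved by over 1.5 times, with 12 at 6 h. Slide as a random block gave 22 against GC cells and 17 against 24 h cells. Leaving out 1 sample at a time gave 18 to 22 against GC cells, 20 to 27 against untreated cells, 21 to 25, 11 to 21 and 13 to 18 against 3, 6 and 24 h anti-IgM cells, and 3 to 8 for GC against untreated cells. Leaving out 1 drug array gave 11 to 15 for the mean, 0 to 2, 1 to 2, 5 to 12 and 9 to 14 at 1, 3, 6 and 24 h, 3 to 10 between 1 and 24 h and 0 for the line difference. The fit of 6 splenic samples has no degrees of freedom left when 1 is removed, so none could be left out there. P4ha2 was near background in most samples and the brightest probes of several members were flagged or saturated on drug arrays, which limits both.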
